A study of Mus musculus with 45 samples.

Results

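Lipopolysaccharide (LPS) was set against anti-IgM in mouse follicular B cells held on OP9-DL1 stroma for 68 h, with 3 libraries for each stimulus. These 6 libraries were taken by their labels from 45 in all. The cells came from the spleens of B6.Blimp1GFP/+ mice, in which a fluorescent reporter stands at the Blimp1 (Prdm1) locus, and every library of the comparison carried this genotype. The LPS group received LPS purified from Salmonella enterica, and the anti-IgM group received F(ab')2 fragments against IgM, both at 10 µg/mL. OP9 is a mouse bone marrow stromal line, and OP9-DL1 is its derivative that displays the Notch ligand Delta-like 1, so both groups met the ligand throughout. The same stimuli were also given for 20 h and 44 h on OP9-DL1 and for 20 h, 44 h and 68 h on plain OP9. Viable cells were sorted into lysis reagent and polyadenylated RNA was sequenced. The study addressed how forced Notch2 signaling alters the response of B cells to Toll-like receptors and to the B cell receptor. The labels do not say whether replicates came from separate animals or cultures. The p-values therefore measure only the spread between libraries of a group, pooled over all 45.

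LPS is sensed by TLR4 with its partner MD-2, helped on B cells by CD180, and the signal runs through MyD88 and TRIF to NF-kB, to kinases and to interferon regulatory factors. Anti-IgM crosslinks the B cell receptor and acts through Syk, Btk, calcium and NFAT without giving the cells costimulation. In the mouse spleen, LPS drives follicular B cells to divide, to switch isotype to IgG2b and IgG3 and to form plasmablasts, whereas receptor crosslinking alone gives activation with little antibody secretion. Delta-like 1 acts on B cells through Notch2, the receptor that directs marginal zone B cells.

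The B cell label was borne out by the markers. The summed level of a B cell identity list was 12922 to 24457 scaled TPM in LPS libraries and 25276 to 27327 in anti-IgM libraries. Scaled TPM are the deposited TPM (transcripts per 1000000 transcripts) divided by a size factor per library. LPS replicate 3 stood apart: Actb, cytoplasmic beta-actin, was at 985, 1240 and 85337 deposited TPM in LPS replicates 1 to 3 and at 1443, 1208 and 1302 in the anti-IgM libraries. It was 1 of 10 such libraries in the series, at 12355 to 85337 TPM against 217 to 2974 TPM in the other 35. Fits were therefore run with and without it, and a gene written below as higher or lower with LPS passed in both unless said otherwise. Stromal markers summed to 130 to 348 scaled TPM in LPS libraries and 218 to 255 in anti-IgM libraries. Vim alone was at 44.4 to 57.2 in LPS and 79.4 to 107 in anti-IgM libraries. Saa3, Lum and Thy1 were listed at 0 in all 6, but other members were detected in every library. Cxcl12 was at 1.93 to 21.3 in LPS and 19.8 to 31 in anti-IgM libraries. Col1a1 was at 3.68 to 4.84 in LPS and 5.66 to 8.08 in anti-IgM libraries. Fn1 and Fstl1 reached 120 and 95.4 in LPS replicate 3 and did not pass 16.8 in any of the other 5. T cell markers summed to 87.1 to 139 in LPS and 347 to 400 in anti-IgM libraries. Nearly all of the anti-IgM sum was Lck, at 335 to 380. In LPS libraries Ccl5 (53.2 to 79.5) and Lck (23.4 to 52.3) made up most of it. Cd3e was listed at 0 in all 6 libraries and Cd3g did not pass 3.62. Myeloid markers summed to 20.2 to 26.2 in LPS and 44.1 to 61.4 in anti-IgM libraries. Markers of natural killer and dendritic cells summed to 187 to 329 in LPS and 85.1 to 102 in anti-IgM libraries. Most of the latter was Bst2, at 95.4 to 143 and 61.2 to 76.2, and Flt3, at 74.4 to 168 and 13.8 to 16. The part of other cells in the results was not tested. Read totals were not used here. If the lowest value of each library in the authors' log2 table is limma's offset for a gene with no reads, the 6 libraries held an estimated 5.66e+06 to 8.62e+06 reads.

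The groups differed across many genes at 68 h. With all libraries, 686 of 15614 tested genes differed, or 4.39%. Of these, 408 (2.61%) were higher and 278 (1.78%) were lower with LPS, by limma with Benjamini-Hochberg adjustment over all tested genes. Without LPS replicate 3, 421 genes were called (2.7%), 295 higher (1.89%) and 126 lower (0.807%). In both fits 358 genes were called in the same direction (2.29%), 240 higher (1.54%) and 118 lower (0.756%). They made up 52.2% of the 686 and 85% of the 421. For 357 of the 358 the 3 libraries of one stimulus lay wholly outside the range of the other. Over all genes, 14.3% were apart with LPS higher and 12.6% with LPS lower. The count also fell without anti-IgM replicate 2, to 398, and without anti-IgM replicate 3, to 407. It was 188 when the spread was taken from the 6 libraries alone, and 1189 (7.61%) when all 10 libraries of very high Actb were left out. Fold changes below are log2 differences of scaled TPM + 1, LPS minus anti-IgM, with their standard error, and they understate the change of low genes. In bulk libraries, fewer cells of a type and less RNA per cell cannot be told apart.

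**Figure D1:**
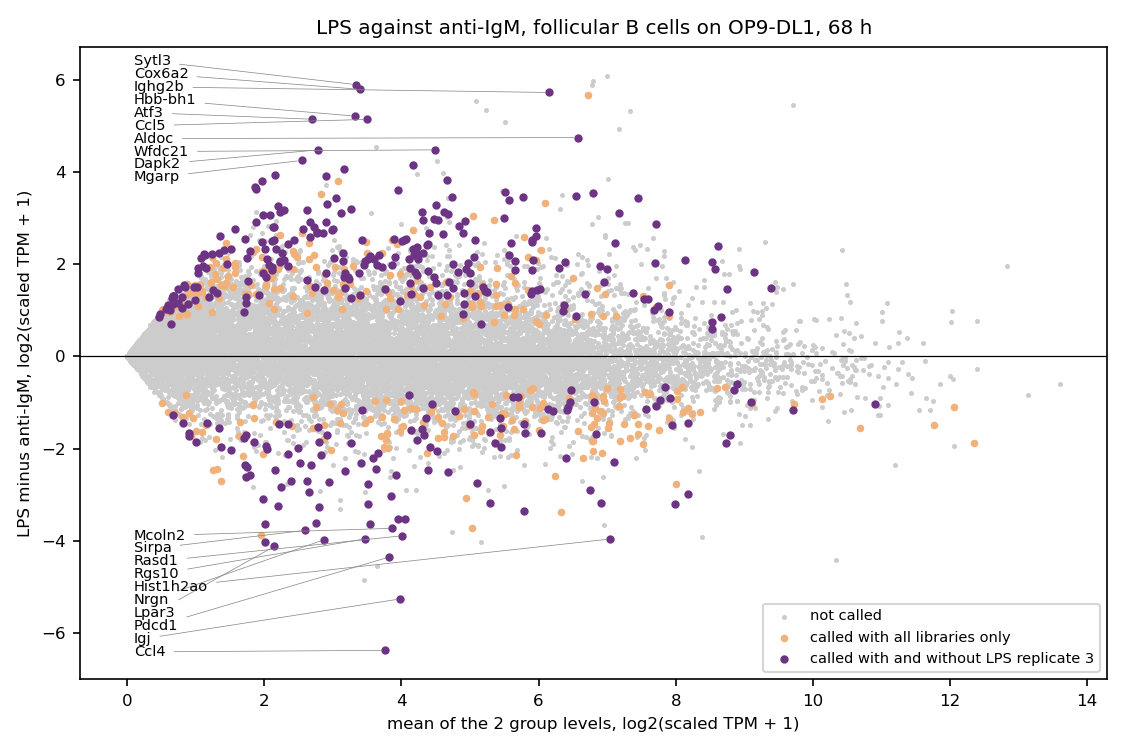
Each point is 1 of the 15614 tested genes, with the mean of both group levels on the x axis and the log2 difference (LPS minus anti-IgM, scaled TPM + 1) on the y axis. Dark points are the 358 genes called with and without LPS replicate 3, light orange points are called with all libraries only, and the labelled genes are the 10 largest changes each way.

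The largest increases with LPS joined a vesicle trafficking gene, a muscle form of a respiratory subunit, an antibody gene, a stress transcription factor and a glycolytic enzyme. Sytl3, which encodes a synaptotagmin-like protein that links Rab27 to vesicles, was at 54.3, 60.4 and 121 scaled TPM with LPS, against 0.297, 0 and 0.536 with anti-IgM. The difference was 5.89 ± 0.45 (SE), with adjusted p = 3.71e-11, and 2.31e-09 without LPS replicate 3. Cox6a2, the heart and muscle form of a cytochrome c oxidase subunit, was at 67, 75.6 and 86.3 with LPS, against 0.366, 0 and 0.976 with anti-IgM. Its difference was 5.79 ± 0.45. In both genes each LPS library stood far above each anti-IgM library, and LPS replicate 3 was the highest.

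Atf3, a stress-induced factor of the CREB family that dampens Toll-like receptor responses, was at 38.1, 34.5 and 39.5 scaled TPM with LPS and at 0.0952, 0 and 0.169 with anti-IgM. It was higher by 5.14 ± 0.30 (adjusted p = 4.51e-14 with all libraries and 3.7e-12 without LPS replicate 3). Dapk2, a calmodulin-regulated kinase of the death-associated family, was at 31.9, 30.3 and 30.2 with LPS and at 0.495, 0 and 0.954 with anti-IgM, a difference of 4.47 ± 0.37. The LPS libraries agreed closely in both genes, replicate 3 included. The other large increases were Hbb-bh1, an embryonic beta-like globin (5.21), Wfdc21, a small secreted protein of the whey acidic family (4.48), and Mgarp, a mitochondrial protein (4.25). Mgarp was at 34.7, 32.9 and 9.36 with LPS, so here replicate 3 was the lowest of the 3, and at 0, 0 and 0.832 with anti-IgM.

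The largest decreases with LPS were genes that were plainly expressed in anti-IgM libraries and near 0 with LPS in most cases. Lpar3, a receptor for lysophosphatidic acid, was listed at 0, 0.185 and 0 with LPS, against 19.7, 15.8 and 16.8 with anti-IgM, a difference of -4.12 ± 0.33 (adjusted p = 9.75e-11 with all libraries and 3.57e-09 without LPS replicate 3). Rasd1, a Ras-like G protein, was at 3.93, 2.53 and 3.2 with LPS and at 63.5, 57.7 and 61.2 with anti-IgM, a difference of -3.88 ± 0.34. Sirpa, the inhibitory receptor for CD47, was at 0.657, 0.762 and 0.47 with LPS and at 21.2, 23.8 and 18.8 with anti-IgM, a difference of -3.77 ± 0.38. No LPS library came near an anti-IgM library in these genes, which were chosen only among genes whose groups did not overlap.

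Rgs10, which speeds the switching off of G proteins, differed by -3.95, Nrgn, a calmodulin-binding protein, by -3.97, and Mcoln2, an endolysosomal cation channel, by -3.72. Hist1h2ao, a replication-type histone gene, was at 34.6, 25.6 and 30.2 scaled TPM with LPS and at 226, 940 and 515 with anti-IgM, a difference of -3.95. Its anti-IgM libraries were the most spread, and its call was lost without anti-IgM replicate 2 (-3.47, adjusted p = 0.0711) and with a pseudocount of 0.1. Reads from near-identical histone copies cannot be told apart with certainty, and the same holds for Ccl3 and Ccl4, for the IgG constant genes and for the Ifit, Oas and Gbp families.

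**Figure D2:**
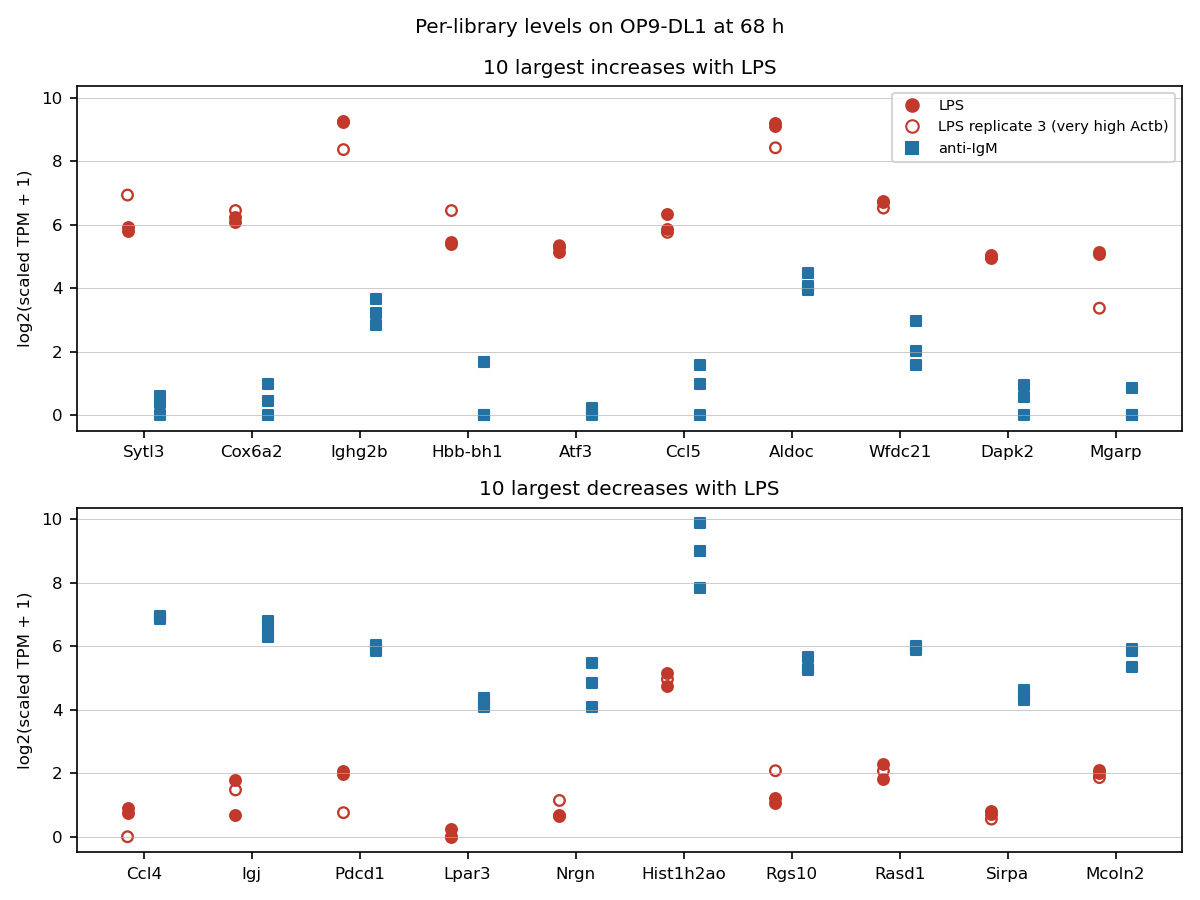
Levels of the 10 largest increases (upper panel) and the 10 largest decreases (lower panel) in each library on OP9-DL1 at 68 h, as log2(scaled TPM + 1), with LPS as circles (left) and anti-IgM as squares (right). The open circle is LPS replicate 3. In all 20 genes the circles and squares do not overlap, which the rule that chose them required.

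Antibody genes moved in opposite directions. Ighg2b, the IgG2b heavy chain and a classical LPS-induced isotype, was at 617, 607 and 329 scaled TPM with LPS and at 8.41, 6.18 and 11.5 with anti-IgM. It was higher by 5.72 ± 0.39 (adjusted p = 1.81e-12 with all libraries and 8.35e-12 without LPS replicate 3). LPS replicate 3 was the lowest LPS library, yet stood well above every anti-IgM library.

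Igj, the joining chain of secreted IgM and IgA, went the other way. It was at 2.44, 0.603 and 1.78 scaled TPM with LPS and at 95.5, 77.8 and 111 with anti-IgM, a difference of -5.25 ± 0.50 (adjusted p = 3.69e-09 with all libraries and 6.53e-08 without LPS replicate 3). The LPS libraries were at the level of unstimulated cells on OP9-DL1 at 68 h, which had 1.7, 1.84 and 4.59. Sdc1, the plasma cell surface proteoglycan CD138, was at 1.9, 2.28 and 0 with LPS and at 12.6, 19.4 and 14.5 with anti-IgM, a difference of -2.94 ± 0.59 (0.00139 and 0.0266). Ighd, the IgD heavy chain of resting B cells, was at 222, 214 and 222 with LPS and at 844, 766 and 831 with anti-IgM, a difference of -1.89 ± 0.46 (0.0116 and 0.0399). The groups did not overlap in any of these genes. The call of Sdc1 was lost when only the 6 libraries were fitted.

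Prdm1, which encodes Blimp1, the master factor of plasma cells, was at 3.49, 5.79 and 5.29 scaled TPM with LPS and at 1.84, 0.74 and 1.34 with anti-IgM, a difference of 1.35 ± 0.33. All of these values were far below the 75.6 ± 7.66 (SD, n = 3) of the sorted Blimp1+ cells in the series. Its call (adjusted p = 0.0119) was lost without LPS replicate 3 (1.29, adjusted p = 0.0581), without LPS replicate 2 (1.23, 0.0608) and without anti-IgM replicate 2 (1.16, 0.1). Of 30 tested plasma cell genes, 4 were called higher and 2 lower with all libraries, and 1 and 2 in both fits, against 1.54% and 0.756% of all genes in both fits, with a median difference of 0.10 against 0.08 over all genes. The member higher in both was Tnfrsf13b, the receptor TACI, at 1297, 1180 and 897 with LPS and at 389, 416 and 395 with anti-IgM. Its groups were apart, but its call was lost without any 1 of LPS replicates 1 and 2 and anti-IgM replicates 1 to 3 (1.36 or more, adjusted p from 0.084 to 0.0977).

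Other antibody and plasma cell genes did not pass the test. Ighm, the IgM heavy chain, was at 3520, 3250 and 1103 scaled TPM with LPS and at 4620, 4501 and 4522 with anti-IgM (-0.97, adjusted p = 0.242). Ighg3 was at 116, 130 and 65 with LPS and at 47.2, 44.6 and 52.2 with anti-IgM (1.04, 0.196), so that its groups were apart without passing. Without the libraries of very high Actb it was called (1.34, adjusted p = 0.00346). Xbp1, the secretory pathway factor, had 150, 134 and 30.9 with LPS and 170, 195 and 188 with anti-IgM (-1.09, 0.368), and only LPS replicate 3 was far from the rest. Irf4 had 14.3, 11.7 and 7.03 with LPS and 16.1, 17.2 and 18.4 with anti-IgM (-0.65, 0.352). Ighg1 (-1.16, 0.352) and Ighg2c (1.30, 0.353) stayed below 16 in all 6 libraries. On the class switch list, Batf, an AP-1 family factor needed for switching, was higher (1.25) and Hmces, a DNA repair protein, was lower (-2.72). The call of Batf was lost on the values as deposited and in the authors' log2 table.

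**Figure D3:**
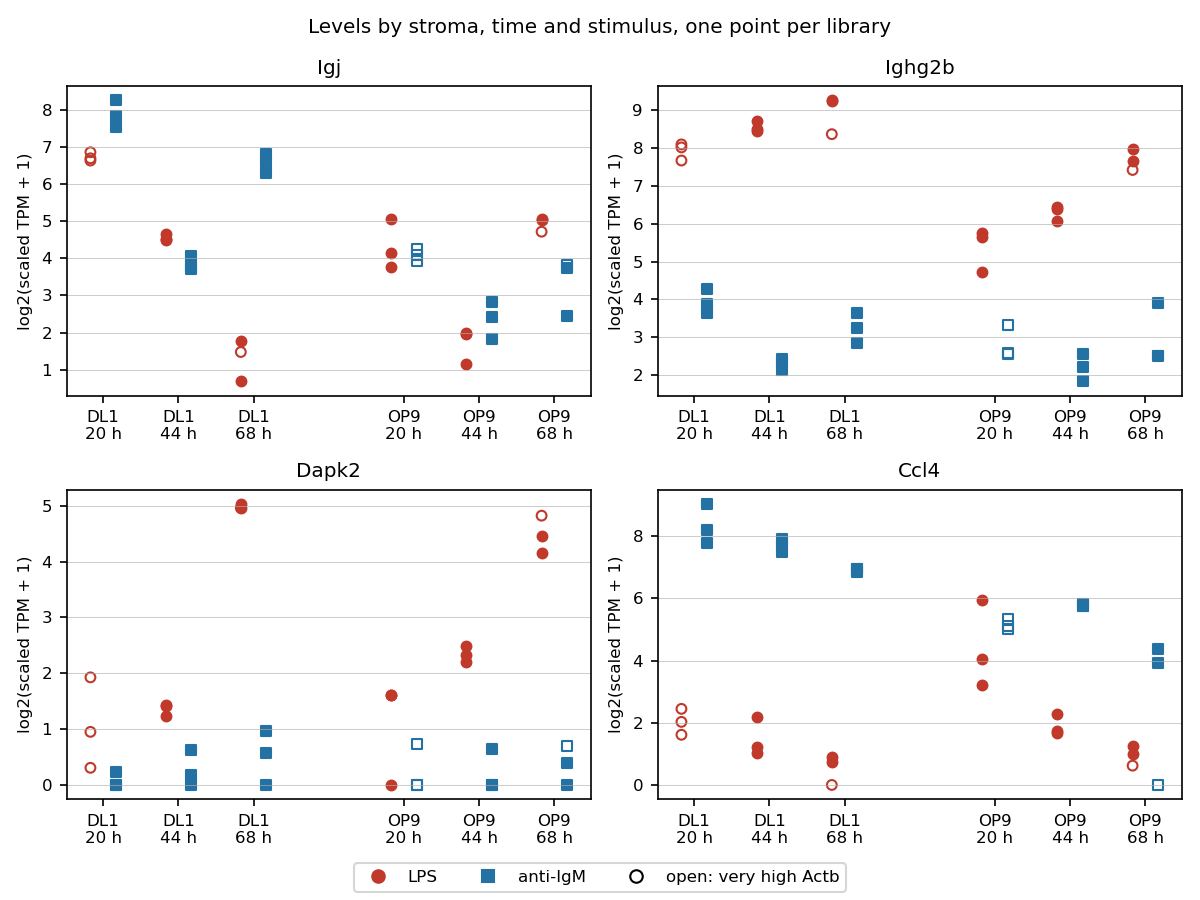
Levels of Igj, Ighg2b, Dapk2 and Ccl4 in each library as log2(scaled TPM + 1), by stroma (OP9-DL1 left, OP9 right), time in hours (20, 44, 68) and stimulus (LPS circles, anti-IgM squares; open symbols are libraries of very high Actb). Igj on OP9-DL1 at 68 h lies at 0.603 to 2.44 scaled TPM with LPS and at 77.8 to 111 with anti-IgM, while on OP9 at 68 h the LPS libraries are the higher ones.

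Chemokines and cytokines split by gene. Ccl4, a chemokine that B cells make on receptor crosslinking, was at 0.868, 0.671 and 0 scaled TPM with LPS and at 121, 115 and 123 with anti-IgM, the largest decrease of the comparison at -6.37 ± 0.85 (adjusted p = 3.21e-06 with all libraries and 6.52e-05 without LPS replicate 3). Ccl3, its neighbour and relative, was at 0.69, 1.87 and 1.12 with LPS and at 15.3, 17.3 and 29.3 with anti-IgM, a difference of -3.26. Ccl5, an attractant of T cells and monocytes, ran against both, at 58, 79.5 and 53.2 with LPS and at 0, 1.97 and 0.991 with anti-IgM, a difference of 5.14 ± 0.58 (1.77e-07 and 1.68e-06). The groups did not overlap in any of the 3 chemokines.

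Ltb, the membrane lymphotoxin that shapes lymphoid tissue, was at 611, 656 and 461 scaled TPM with LPS and at 44.4, 53.4 and 57.6 with anti-IgM, a difference of 3.44 ± 0.49 (8.68e-06 and 4.65e-05). Il12a, the p35 chain shared by interleukins 12 and 35, was at 58.8, 73 and 92.5 with LPS and at 11.6, 8.59 and 12.3 with anti-IgM, a difference of 2.67 ± 0.48. Il10, the cytokine of regulatory B cells, was at 7.62, 9.49 and 20.3 with LPS and was listed at 0 in all 3 anti-IgM libraries. Il12a and Il10 were highest in LPS replicate 3, and neither call was lost without it. Over 22 tested chemokine and cytokine genes, 6 were higher and 3 lower in both fits, against 1.54% and 0.756% of all genes. Il12a, Il10, Lag3, Nfkbia, Gbp2, Pdk1, Pgk1, Egln3 and P4ha1 are named here as list members picked after their values were seen.

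Inhibitory receptors were called in both directions. Of 25 tested, 5 were called lower and 2 higher with all libraries, and 4 and 1 in both fits, against 0.756% and 1.54% of all genes. Over the whole list, 12 differences were positive and 13 negative, with a median of -0.01 (0.11 without LPS replicate 3). Pdcd1, the checkpoint receptor PD-1, was at 2.9, 3.2 and 0.692 scaled TPM with LPS and at 64.1, 61.4 and 56.2 with anti-IgM, a difference of -4.34 ± 0.63 (adjusted p = 1.15e-05 with all libraries and 0.000339 without LPS replicate 3). Havcr1, the phosphatidylserine receptor TIM-1, was at 0.753, 0.336 and 0.354 with LPS and at 14.3, 9.97 and 15.1 with anti-IgM (-3.24). Lag3, a receptor for MHC class II, was at 1.34, 1.19 and 2.32 with LPS and at 11.8, 10.9 and 12.4 with anti-IgM (-2.30). Cd5, a brake on antigen receptor signals, was lower by 2.40 on the log2 scale, at 0.16 to 0.607 with LPS and 5.29 to 9.5 with anti-IgM. Fcrl5, an Fc receptor-like protein of marginal zone B cells, was the member called higher in both fits, at 67.6, 60.7 and 31.5 with LPS and at 5.01, 2.89 and 2.27 with anti-IgM (3.60 ± 0.51). The call of Lag3 was lost in the authors' log2 table and with a pseudocount of 0.1.

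Genes on the marker lists of other cell types took part in this. Lck, a Src kinase of T cells and of some B cells, was at 43.9, 52.3 and 23.4 scaled TPM with LPS and at 335, 380 and 343 with anti-IgM (-3.18 ± 0.49). Of 16 tested T cell markers, Cd5 and Lck were lower and Ccl5 was higher in both fits, against 0.756% and 1.54% of all genes. Cd3e was listed at 0 in all 6 libraries and Trac did not pass 0.269. On the myeloid list Wfdc17 was lower (-2.48), at 1.02 to 5.02 with LPS and 13.7 to 23.7 with anti-IgM. It was 1 of 13 tested, against 0.756% of all genes. On the list of natural killer and dendritic cell markers, 2 of 14 tested were higher in both fits, against 1.54% of all genes. They were Flt3, a cytokine receptor kinase, and Bst2 (0.88), which is also on the interferon list. Flt3 was at 168, 149 and 74.4 with LPS and at 13.8, 16 and 13.8 with anti-IgM (3.00). The call of Wfdc17 was lost when only the 6 libraries were fitted.

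Immediate early genes of the antigen receptor did not move together. Egr2, a zinc finger factor induced through NFAT, was at 3.24, 8.12 and 1.44 scaled TPM with LPS and at 48.2, 48.6 and 58.3 with anti-IgM, a difference of -3.53 ± 0.65 (adjusted p = 0.000514 with all libraries and 0.00884 without LPS replicate 3). Egr1 had 44.4, 40.5 and 9.08 with LPS and 36.8, 33.5 and 40.1 with anti-IgM (-0.50, 0.686), and Nr4a1, which encodes Nur77, had 46.4, 42.7 and 4.83 with LPS and 37.8, 45.7 and 45.7 with anti-IgM (-0.94, 0.558). In Egr1 and Nr4a1 the signs of the differences came from LPS replicate 3 and turned without it (0.20 and 0.05). Cd69, an early activation antigen that retains lymphocytes in tissue, was at 76.3, 76 and 34.4 with LPS and at 9, 7.92 and 8.42 with anti-IgM (2.66 ± 0.47). Of 33 tested immediate early genes, 2 were higher (Atf3 and Cd69) and 2 lower (Egr2 and Klf6) in both fits, against 1.54% and 0.756% of all genes. The call of Cd69 was lost in the authors' log2 table, and that of Klf6 (-0.82) in each fit that left out LPS replicate 1 or 2 or any anti-IgM replicate (-0.68 to -0.84, adjusted p from 0.0724 to 0.108).

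Of 27 tested costimulation genes, 6 were higher and 1 lower with LPS in both fits, against 1.54% and 0.756% of all genes, and the median was 0.09 against 0.08 over all genes. Cd40, the receptor for T cell help, was at 162, 167 and 176 scaled TPM with LPS and at 45.2, 39.1 and 36.7 with anti-IgM, a difference of 2.04 ± 0.29 (adjusted p = 1.07e-05 with all libraries and 0.000141 without LPS replicate 3). Cd80, a ligand of CD28, was at 6.39, 7.41 and 19.8 with LPS and at 0.543, 0.256 and 0.965 with anti-IgM (2.80 ± 0.35). Cd86, the other CD28 ligand, did not pass, at 75.1, 70.1 and 70 with LPS and at 90.1, 74.5 and 93.2 with anti-IgM (-0.25, 0.751). So both ligands of CD28 were read in the same libraries, and the call was made for Cd80 alone. Il2ra, the alpha chain of the interleukin 2 receptor (1.99), and Fas, the death receptor (1.71), were also higher. The calls of Cd80, Il2ra and Fas were lost when only the 6 libraries were fitted, and that of Fas without anti-IgM replicate 2 (1.47, adjusted p = 0.0724).

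Nfkbia, the inhibitor IkB-alpha and an NF-kB target, was at 562, 547 and 629 scaled TPM with LPS and at 124, 140 and 143 with anti-IgM (2.09 ± 0.38, adjusted p = 0.000424 with all libraries and 0.00356 without LPS replicate 3). Nfkbiz, a nuclear IkB protein that acts in Toll-like receptor responses, was at 32.3, 29.6 and 52.9 with LPS and at 6.72, 6.79 and 8.5 with anti-IgM (2.20). Tnip3, a partner of the NF-kB inhibitor A20, was at 4.92, 5.83 and 1.92 with LPS and at 0.0448, 0.0528 and 0.0797 with anti-IgM (2.21). Each of these was higher in 3 of 3 LPS libraries. Of 35 tested NF-kB genes, 7 were higher and 2 (Ccl3 and Ccl4) were lower in both fits, against 1.54% and 0.756% of all genes, and the median was 0.15 with all libraries and 0.40 without LPS replicate 3. The call of Tnip3 was lost when only the 6 libraries were fitted.

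Interferon response genes formed the list with the most members higher with LPS. These genes are induced by type I interferon through STAT factors and IRF9, or directly by IRF3, and many of their promoters hold an interferon-stimulated response element. Of 48 tested, 26 were higher and none lower with all libraries, 20 and 0 without LPS replicate 3, and 18 higher in both fits, against the 2.61%, 1.89% and 1.54% of all genes called higher. Their median difference was 1.46, against 0.08 over all genes, and lay between 1.35 and 1.46 over the scalings tried. In 34 of the 48 the LPS libraries were all above the anti-IgM libraries, and in 2 all below, against 14.3% and 12.6% of all genes.

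The element was looked for as a pair of GAAA words with any 2 bases between them, on both strands of RefSeq promoter windows (GRCm38.p6, 250 bases before to 50 after each start). It stood in 3.44% of all 32851 windows and 3.13% of the windows of tested genes. Windows were found for 34 of the 48 genes, and 16 of their 42 windows held it (38.1%). It stood in 7 of 15 genes called in both fits (46.7%) and in 8 of the other 19 (42.1%). A pair of called members is shown in lower case with the matches in capitals, chosen as an antiviral effector and a GTPase that carry the element upstream of the start:
Ifit1, chr19:34640769-34640848, plus strand: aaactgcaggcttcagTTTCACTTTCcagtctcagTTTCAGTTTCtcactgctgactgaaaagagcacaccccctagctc
Gbp2, chr3:142620569-142620648, plus strand: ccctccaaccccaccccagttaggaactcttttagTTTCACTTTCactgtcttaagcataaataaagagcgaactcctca

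Ifit1, which binds viral RNA caps and whose window shows 2 matches, was at 23.6, 22.8 and 65.6 scaled TPM with LPS and at 1.94, 0.984 and 0.411 with anti-IgM, a difference of 4.07 ± 0.52 (adjusted p = 1.31e-06 with all libraries and 5.18e-05 without LPS replicate 3). Gbp2, a guanylate-binding GTPase, was at 107, 97.6 and 50.5 with LPS and at 10.6, 7.71 and 11.1 with anti-IgM (2.93 ± 0.41). Isg20, an exonuclease that degrades RNA, was at 135, 140 and 182 with LPS and at 14.6, 10.8 and 15.4 with anti-IgM (3.40 ± 0.32, 2.58e-09 and 1.03e-07). LPS replicate 3 was the highest LPS library for Ifit1 and Isg20 and the lowest for Gbp2, and in all 3 genes every LPS library was above every anti-IgM library.

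Usp18, which removes ISG15 and limits interferon signaling, was at 88, 92 and 43.5 scaled TPM with LPS and at 9.31, 4.86 and 9.03 with anti-IgM (3.08 ± 0.32). Lgals3bp, a secreted galectin-binding protein, was at 61.1, 79.9 and 32.6 with LPS and at 7.43, 5.96 and 3.32 with anti-IgM (3.13). Bst2, the virus tether tetherin, changed least of the 18, at 143, 141 and 95.4 with LPS and at 64.6, 76.2 and 61.2 with anti-IgM (0.88). Its call was lost without LPS replicate 1, LPS replicate 2 or anti-IgM replicate 3 (0.78, 0.79 and 0.82, adjusted p = 0.0526, 0.0564 and 0.0587). Set beside unstimulated cells on OP9-DL1 at 68 h, the anti-IgM mean was below in 16 of the 18 members and the LPS mean was above in 15. The median of the 18 group means was 40.6 with LPS, 5.86 with anti-IgM and 13.8 without stimulus, a description with no test. The 18 were picked for LPS above anti-IgM in these same libraries, which favours this order in advance. On plain OP9 all 18 were also higher with LPS, with medians of 25.1 with LPS and 6.84 with anti-IgM. The difference between the stromas was called in none of the 18 (lowest adjusted p = 0.194), against 0.199% of all genes. It ran from -0.89 to 2.03, and the lack of calls does not show that the contrasts were equal.

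Glycolysis and hypoxia genes were the second list of this size. Cells low in oxygen, or with active mTOR, stabilise HIF factors that bind an ACGTG core and induce glucose transporters, glycolytic enzymes and mitophagy receptors. Of 39 tested, 16 were higher with all libraries, 17 without LPS replicate 3 and 15 in both fits, against 2.61%, 1.89% and 1.54% of all genes. None was lower in either fit. In 26 of the 39 all LPS libraries were above all anti-IgM libraries, against 14.3% of all genes. The median difference was 1.16 with all libraries and 1.37 without LPS replicate 3, and 1.02 to 1.16 over the scalings.

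The core ACGTG, read on both strands, is short and common: it stood in 19.6% of all windows and 24.5% of those of tested genes, and in 29 of 51 windows of the list (56.9%; windows were found for 35 of the 39 genes). Among members called in both fits 9 of 12 genes held it (75%), and among the others 17 of 23 (73.9%). The windows of 4 called members are shown, picked as a mitophagy receptor, a lactate exporter, an oxygen sensor and a collagen hydroxylase with the core in capitals:
Bnip3, chr7:138909572-138909651, minus strand: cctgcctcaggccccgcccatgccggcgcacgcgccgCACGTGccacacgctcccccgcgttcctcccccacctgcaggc
Slc16a3, chr11:120948987-120949066, plus strand: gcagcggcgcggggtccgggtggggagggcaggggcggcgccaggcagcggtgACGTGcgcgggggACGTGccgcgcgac
Egln3, chr12:54204062-54204124, minus strand: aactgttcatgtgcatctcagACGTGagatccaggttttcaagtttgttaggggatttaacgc
P4ha1, chr10:59323216-59323295, plus strand: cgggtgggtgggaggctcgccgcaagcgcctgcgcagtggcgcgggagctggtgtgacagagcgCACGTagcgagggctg

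Aldoc, an aldolase of glycolysis, had the largest difference of the list, at 552, 589 and 343 scaled TPM with LPS and at 15.9, 14.5 and 21.3 with anti-IgM (4.74 ± 0.54, adjusted p = 1.76e-07 with all libraries and 7.42e-07 without LPS replicate 3). Bnip3, whose protein tags mitochondria for removal and whose window above holds the core as a palindrome, was at 530, 479 and 170 with LPS and at 22.2, 42.9 and 26.4 with anti-IgM (3.54 ± 0.51, 9.94e-06 and 4.01e-06). Egln3, a prolyl hydroxylase that marks HIF for decay and is itself a HIF target, was at 14.9, 15.2 and 9.04 with LPS and at 0.523, 0.925 and 0.29 with anti-IgM (3.14 ± 0.32). LPS replicate 3 was the lowest LPS library for each, and the groups were apart.

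Slc16a3, the lactate exporter MCT4 with a pair of cores close to its start, was at 220, 169 and 6.76 scaled TPM with LPS and at 2.26, 5.08 and 4.12 with anti-IgM. LPS replicate 3 was near the anti-IgM libraries and far below the other LPS libraries. The difference was 3.83 ± 0.91 (adjusted p = 0.00883), and 5.38 without LPS replicate 3 (6.24e-05). The call was lost without LPS replicate 1 (2.96, adjusted p = 0.0765) or LPS replicate 2 (3.15, 0.0732).

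Vegfa, the vascular growth factor, was at 25.3, 28.5 and 13.7 scaled TPM with LPS and at 0.638, 1.02 and 2.66 with anti-IgM (3.29 ± 0.45). Pdk1, a kinase that inhibits pyruvate dehydrogenase, was at 184, 165 and 104 with LPS and at 35.6, 16.7 and 21.1 with anti-IgM (2.60 ± 0.34). P4ha1, a subunit of collagen prolyl hydroxylase, was at 38.6, 41 and 38.7 with LPS and at 6.7, 8.43 and 7.49 with anti-IgM (2.25 ± 0.34). Every LPS library was above every anti-IgM library in each of these. Pgk1, the first ATP-making enzyme of glycolysis, was at 1107, 1106 and 981 with LPS and at 310, 289 and 298 with anti-IgM (1.83 ± 0.23, adjusted p = 1.01e-06 and 7.24e-06), and its LPS libraries differed least. The median of the 15 group means was 151 with LPS, 17.2 with anti-IgM and 21.5 in unstimulated cells on OP9-DL1, and the LPS mean was above the unstimulated mean in all 15. These 15 were likewise picked for LPS above anti-IgM in these libraries, which favours this order, and it was not tested. On plain OP9 the medians were 146 with LPS and 13.1 with anti-IgM. The difference between the stromas was called in none of the 15 (lowest adjusted p = 0.214), against 0.199% of all genes. It ran from -1.13 to 0.72, so here too equal contrasts are not shown.

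**Figure D4:**
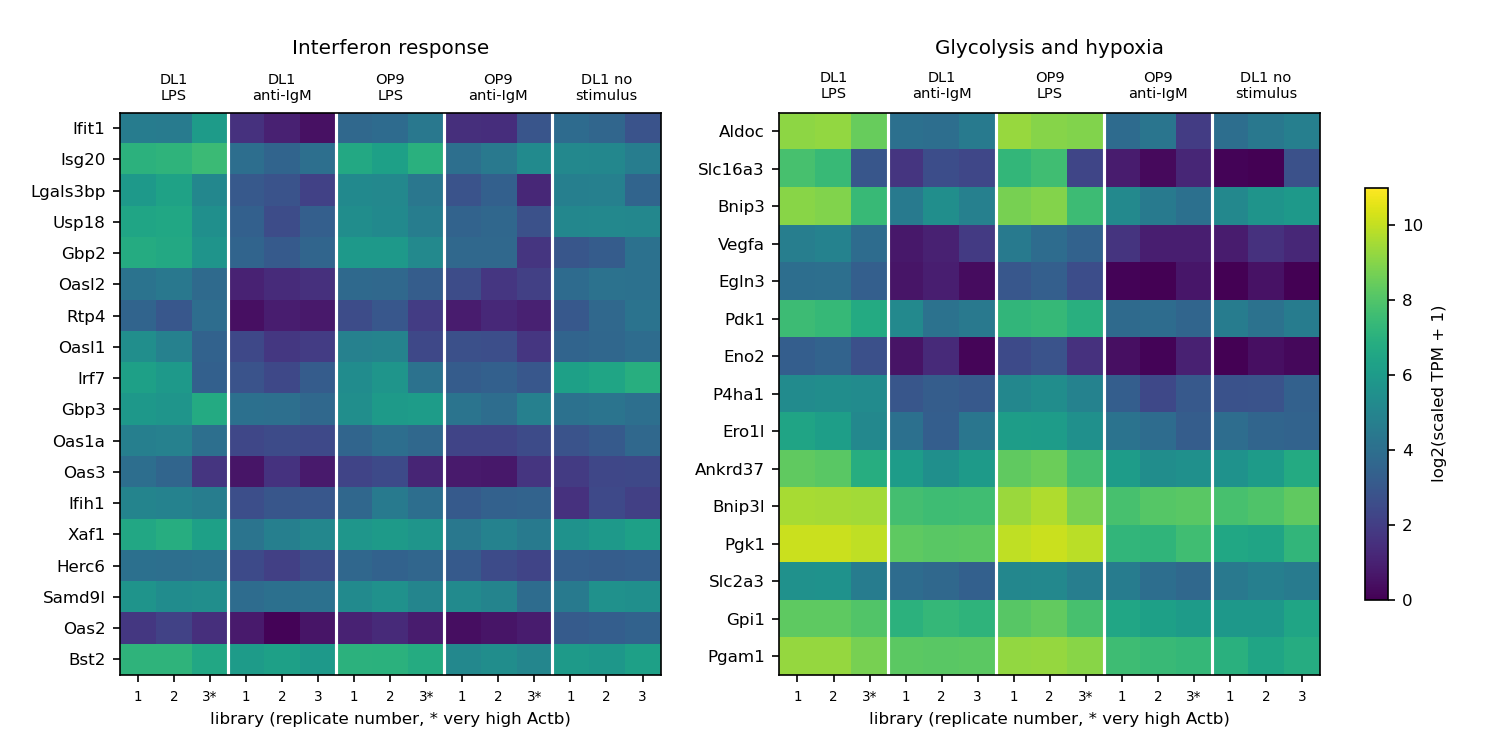
Levels as log2(scaled TPM + 1) (colour) of the 18 interferon response genes (left) and the 15 glycolysis and hypoxia genes (right) called in both fits, one column per library at 68 h, grouped as OP9-DL1 with LPS, OP9-DL1 with anti-IgM, OP9 with LPS, OP9 with anti-IgM and OP9-DL1 with no stimulus; asterisks mark libraries of very high Actb. The median of the interferon group means is 40.6 with LPS, 5.86 with anti-IgM and 13.8 with no stimulus on OP9-DL1.

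Sterol synthesis genes that were called were all higher with LPS. Of 39 tested cholesterol and fatty acid genes, 8 were higher with all libraries, 12 without LPS replicate 3 and 8 in both fits, and none was lower in any of them. Of all genes 2.61%, 1.89% and 1.54% were called higher in these fits. The median was 0.84 with all libraries and 0.64 to 0.84 over the scalings. Fdps, which makes farnesyl diphosphate, was at 721, 841 and 701 scaled TPM with LPS and at 185, 173 and 186 with anti-IgM (2.05 ± 0.23, adjusted p = 9.67e-08 with all libraries and 8.53e-07 without LPS replicate 3). Msmo1, a sterol demethylase, was at 461, 468 and 334 with LPS and at 102, 107 and 96.1 with anti-IgM (2.02). Hmgcs1, which makes HMG-CoA, was at 241, 212 and 286 with LPS and at 66.2, 55.6 and 74.1 with anti-IgM (1.90). LPS replicate 3 sat with the other LPS libraries in all 3 genes. Acss2, which makes acetyl-CoA from acetate, was higher by 1.81, a call lost without anti-IgM replicate 3 (1.62, adjusted p = 0.0655).

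Among 47 tested ATF4 and amino acid genes, 10 were higher with all libraries and 7 in both fits, against 2.61% and 1.54% of all genes, with none lower. The median was 0.28, and 0.001 in the authors' log2 table. Slc7a3, a carrier of arginine and lysine, was at 24.4, 26.2 and 25.2 scaled TPM with LPS and at 0.535, 2.28 and 1.9 with anti-IgM (3.43 ± 0.50). Cth, which makes cysteine, was at 22.1, 21.7 and 13.6 with LPS and at 1.46, 0.831 and 2.96 with anti-IgM (2.92 ± 0.37). Trib3, a pseudokinase induced by ATF4, was at 26.1, 21.4 and 5.24 with LPS and at 1.95, 1.99 and 0.631 with anti-IgM (2.68). The groups were apart in all 3 genes. Chac1, which degrades glutathione, differed by 2.24. The calls of Slc7a3 and Trib3 were lost in the authors' log2 table, and those of Trib3 and Chac1 when only the 6 libraries were fitted.

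Surface genes of follicular and marginal zone B cells changed in both directions. Fcer2a, the low-affinity IgE receptor CD23 of follicular cells, was at 156, 136 and 57.9 scaled TPM with LPS and at 15.3, 22.1 and 19.5 with anti-IgM (2.45 ± 0.45, adjusted p = 0.000383 with all libraries and 0.000132 without LPS replicate 3). Cr2, the complement receptor CD21 that marginal zone cells carry at high level, was at 73.4, 45.7 and 40.6 with LPS and at 14.3, 13.3 and 13.4 with anti-IgM (1.84 ± 0.39). S1pr1, the receptor that guides cells to blood and to the marginal zone, was at 7.1, 6.46 and 2.4 with LPS and at 25, 22.4 and 25.4 with anti-IgM (-2.10 ± 0.43). The groups were apart in each. Of 26 tested genes of this list, 4 were higher and 2 lower in both fits, against 1.54% and 0.756% of all genes. The calls of Fcer2a, Cr2 and S1pr1 were lost when only the 6 libraries were fitted.

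Survival and cell cycle genes were next. Bcl2, which blocks the mitochondrial death pathway, was at 79.9, 78.2 and 386 scaled TPM with LPS and at 10.5, 11.8 and 9.16 with anti-IgM, with LPS replicate 3 far above the rest. The difference was 3.57 ± 0.67 with all libraries (adjusted p = 0.000648) and 2.81 without LPS replicate 3 (0.0169), and the call was lost when only the 6 libraries were fitted. Bcl2l11, the killer protein BIM that BCL2 restrains, was at 21.3, 17.3 and 16.2 with LPS and at 53.3, 46.2 and 55.7 with anti-IgM (-1.46 ± 0.24, 0.000108 and 0.00131). The pair thus differed in opposite directions, each with no overlap of the groups.

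Cdkn1a, the cyclin kinase inhibitor p21, was at 60.8, 60.8 and 42.4 scaled TPM with LPS and at 5.84, 7.08 and 5.36 with anti-IgM (2.96 ± 0.46). Cdkn2b, the inhibitor p15, was at 3.53, 7.48 and 5.34 with LPS and at 0.276, 0 and 0.49 with anti-IgM (2.33). Both were higher in 3 of 3 LPS libraries. Genes of DNA replication and of mitosis were called lower in 5 of 50 and 5 of 53 with all libraries and in none without LPS replicate 3, against 1.78% and 0.807% of all genes. Without the libraries of very high Actb, 465 of all 15614 genes were called lower. Among them were 6 of the replication genes and 7 of the mitosis genes. The medians of the replication and mitosis lists were -0.24 and -0.45 with all libraries and -0.29 and -0.40 without LPS replicate 3. In 25 of 50 and 27 of 53 the LPS libraries were all below the anti-IgM libraries, against 12.6% of all genes. Myc did not pass, at 103, 112 and 239 with LPS and at 84.4, 92.3 and 88.4 with anti-IgM (0.66, 0.369).

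Notch target genes were read because both groups met the ligand. Dtx1, a Notch2 target of marginal zone cells, was at 69.7, 58.9 and 25.5 scaled TPM with LPS and at 71.8, 66.4 and 19.1 with anti-IgM (0.06, adjusted p = 0.991), and its groups overlapped fully. Its sign turned on the values as deposited (-0.05) and in the authors' log2 table (-0.24). Hes1 had 0.293, 2.64 and 23.6 with LPS and 1.29, 2.29 and 1.38 with anti-IgM (adjusted p = 0.715). Its difference turned negative without LPS replicate 3 (-0.27). Nrarp did not pass 0.71 scaled TPM in any of the 6. Of 38 tested Notch genes, 3 were higher and none lower in both fits, against 1.54% and 0.756% of all genes, namely Cdkn1a, Il2ra and Cr2. Dll1, the ligand itself, had 2.6, 9.56 and 1.06 with LPS and 4.43, 12.2 and 2.06 with anti-IgM, and the highest library of each group was replicate 2.

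Tlr4, Cd180 and Cd14, which take part in sensing LPS, did not pass the test. Tlr4 had 3.44, 2.78 and 1.37 scaled TPM with LPS and 6.45, 2.81 and 5.3 with anti-IgM (-0.72, adjusted p = 0.43). Cd180 had 18.7, 9.72 and 66.6 with LPS and 33.3, 28.5 and 30.3 with anti-IgM (-0.38, 0.809). Cd14, the LPS carrier of myeloid cells, was listed at 0 in 5 of the 6 libraries and at 0.209 in LPS replicate 2. Of 28 Toll-like receptor pathway genes and 36 B cell receptor pathway genes tested, none was called in both fits, against 2.29% of all genes. Lists of this size can hold no call at that share. With all libraries 1 gene of each list was called lower. The median of the B cell receptor list was -0.44 (-0.16 without LPS replicate 3), against 0.08 over all genes. Its LPS libraries were all below the anti-IgM libraries in 15 genes and all above in 3. Of all genes, 12.6% were apart with LPS lower and 14.3% with LPS higher. Pax5, the B lineage factor, had 22.3, 22.5 and 19 with LPS and 18.1, 18 and 14.7 with anti-IgM (0.31, 0.729), and Bach2, which holds off plasma cell fate, had 54.8, 42.7 and 10.7 with LPS and 34.1, 38.4 and 29.1 with anti-IgM (-0.18, 0.914).

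Of the other lists, none of 19 MHC class II genes, 44 cytosolic ribosome genes and 44 ribosome biogenesis genes was called in both fits. The same held for 42 genes of translocation into the endoplasmic reticulum, 21 cyclins, 15 stress genes and 33 stromal genes. Over all genes the share was 2.29%, at which such lists can hold no call. Ribosome biogenesis genes were called lower in 3 of 44 with all libraries, against 1.78% of all genes. Without the libraries of very high Actb 7 were, against 465 of 15614 genes. LPS libraries were all below anti-IgM libraries in 16 ribosome biogenesis genes, 15 cytosolic ribosome genes and 16 of 45 oxidative phosphorylation genes. They were all above in 4, 0 and 1, against 12.6% below and 14.3% above of all genes. Among 36 chaperones of the endoplasmic reticulum the only member called in both was Ero1l, an oxidase that is also on the hypoxia list (2.03). Among 45 genes of oxidative phosphorylation it was Atp5g3, an ATP synthase subunit (-0.98). Its call was lost without LPS replicate 1, anti-IgM replicate 1 or anti-IgM replicate 3 (-0.89, -0.94 and -0.91, adjusted p = 0.0655, 0.0661 and 0.0846).

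**Figure D5:**
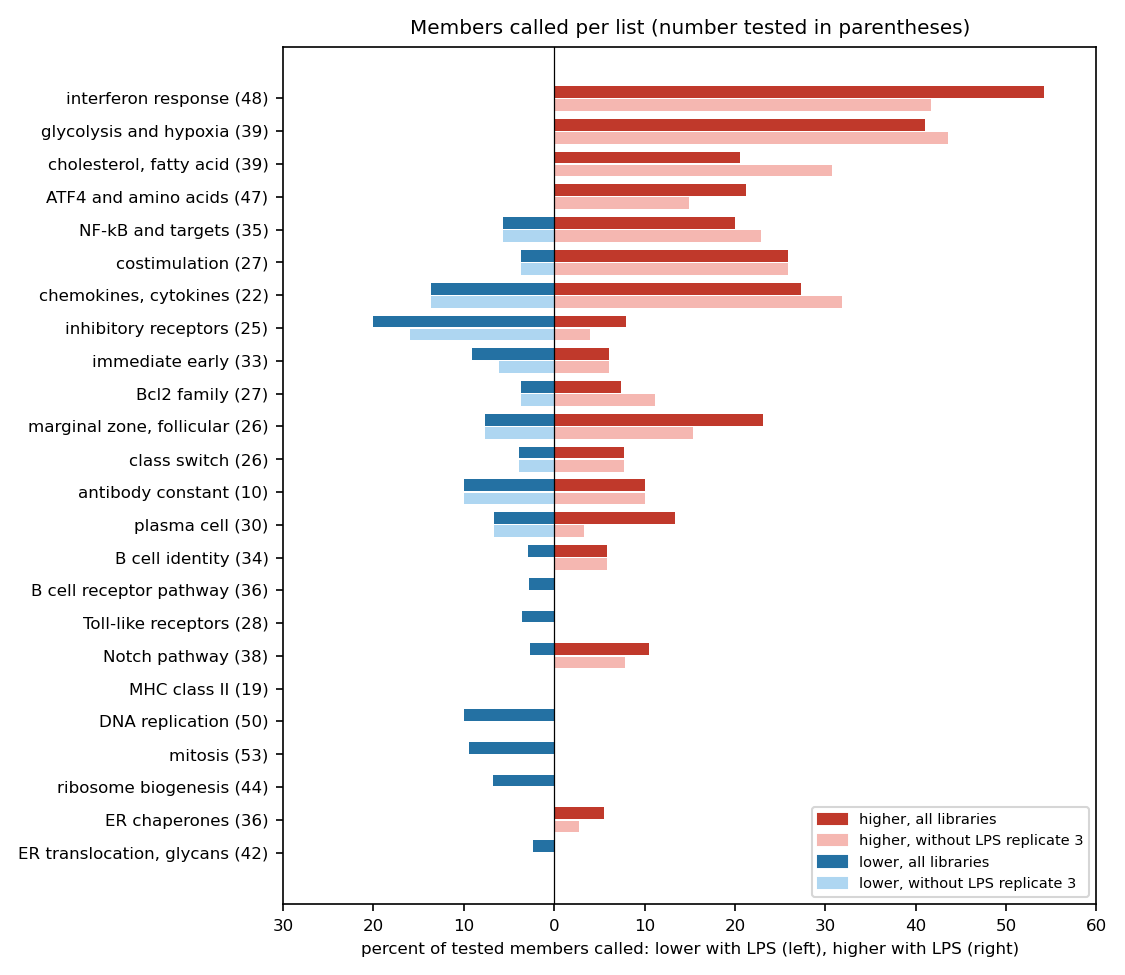
Percent of each list's tested members (number in parentheses) called higher (bars to the right) and lower (bars to the left) with LPS, with all libraries (dark) and without LPS replicate 3 (light). The interferon bar stands for 26 of 48 members and the glycolysis and hypoxia bar for 16 of 39, while over all genes 2.61% were called higher and 1.78% lower.

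The contrast was next set against the same contrast on plain OP9 at 68 h, as the difference OP9-DL1 minus OP9. It was called for 31 genes with all libraries (0.199%), of which 9 were positive (0.0576%) and 22 negative (0.141%), and for 9 without LPS replicate 3 (0.0576%). In both fits it was called for 7 genes (0.0448%), 2 positive (0.0128%) and 5 negative (0.032%). The count ranged from 5, without anti-IgM replicate 1 on OP9-DL1 or LPS replicate 1 on OP9, to 55, without anti-IgM replicate 2 on OP9. It was also under 20 without any 1 of LPS replicate 1, anti-IgM replicate 2 or 3 on OP9-DL1 and LPS replicate 2 or 3 on OP9 (18, 6, 14, 12 and 9), and 49 without anti-IgM replicate 3 on OP9. The 7 genes are Igj, Rgcc, Dynlt1a, Fdps and Nme1 with negative and Slfn8 and Fam101b with positive differences, the last too low for the naming rule (2.84). Both fits kept LPS and anti-IgM replicate 3 on OP9, which also had very high Actb (41871 and 29840 deposited TPM). Without all libraries of very high Actb 102 genes were called, and the 6 genes that met the naming rule kept their calls.

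Igj had the largest of these, and its sign was opposite on the stromas. On OP9-DL1 it was at 2.44, 0.603 and 1.78 scaled TPM with LPS and at 95.5, 77.8 and 111 with anti-IgM, and on OP9 at 32.5, 31.9 and 25.3 with LPS and at 12.5, 4.4 and 13 with anti-IgM. The difference between the contrasts was -6.86 ± 0.71 (adjusted p = 3.72e-07 with all libraries and 1.88e-06 without LPS replicate 3). On OP9-DL1 the LPS libraries were the low ones, and on OP9 the anti-IgM libraries were.

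Dynlt1a, a dynein light chain, was at 41.3, 57.9 and 57.4 scaled TPM with LPS and at 43.1, 56.1 and 68.3 with anti-IgM on OP9-DL1, and at 85.9, 97.1 and 70.7 with LPS and 14.5, 16.5 and 15.2 with anti-IgM on OP9. The groups overlapped on OP9-DL1 and were far apart on OP9, and the difference was -2.46 ± 0.38 (0.00125 and 0.00259). Rgcc, a cell cycle regulator that responds to complement, averaged 11.5 ± 2.51 with LPS and 5.17 ± 1.88 with anti-IgM on OP9-DL1 and 34.8 ± 7.87 with LPS and 1.64 ± 0.473 with anti-IgM on OP9 (SD, n = 3 each), a difference of -2.71 ± 0.44. Fdps averaged 755 ± 75.3 with LPS and 181 ± 6.99 with anti-IgM on OP9-DL1 and 975 ± 31 with LPS and 66 ± 16 with anti-IgM on OP9, a difference of -1.84 ± 0.32. For Rgcc and Fdps the direction was the same on both stromas and the gap was wider on OP9. The Fdps call was lost on the values as deposited.

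Nme1, a nucleoside diphosphate kinase, averaged 347 ± 73.6 scaled TPM with LPS and 536 ± 15 with anti-IgM on OP9-DL1 and 509 ± 167 with LPS and 228 ± 69.7 with anti-IgM on OP9, a difference of -1.79 ± 0.35. Slfn8, a Schlafen protein, averaged 14 ± 2.56 with LPS and 4.4 ± 1.15 with anti-IgM on OP9-DL1 and 6.93 ± 1.02 with LPS and 14.1 ± 1.25 with anti-IgM on OP9 (SD, n = 3 each), a difference of 2.42 ± 0.49. The order of the groups was thus opposite on the stromas in both genes. The call of Nme1 was lost without LPS replicate 1 or anti-IgM replicate 1 or 2 on OP9-DL1 or LPS replicate 1 or 3 on OP9 (-1.57 to -1.79, adjusted p from 0.0587 to 0.0796). The call of Slfn8 was lost without these same 5 libraries and without LPS replicate 2 on OP9-DL1 (2.32 to 2.42, adjusted p from 0.0545 to 0.0843). It was also lost on the values as deposited, with quantile normalization and in the authors' log2 table (adjusted p up to 0.0928), and that of Nme1 when only the groups compared were fitted (0.208).

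The direction was the same on OP9 for a pair of other leading genes. Ighg2b was at 249, 203 and 170 scaled TPM with LPS and at 14, 4.67 and 4.72 with anti-IgM there, and Ccl4 at 0.992, 1.36 and 0.538 with LPS and 19.6, 14.1 and 0 with anti-IgM. The groups were apart on OP9 for Ighg2b and overlapped for Ccl4, through anti-IgM replicate 3, a library of very high Actb. The difference between the stromas was not called for either gene, which does not show that the contrasts were equal.

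Set against 44 h on OP9-DL1, the contrast at 68 h differed for 9 genes with all libraries (0.0576%), 4 positive (0.0256%) and 5 negative (0.032%), for 7 without LPS replicate 3 (0.0448%) and for 6 in both fits (0.0384%). The count was 5 or fewer in 8 of the fits that each left out 1 of the 12 libraries, with a range of 3 to 7. Igj was again first. At 44 h it was at 21.5, 22 and 24.3 scaled TPM with LPS and at 13, 12.2 and 15.6 with anti-IgM, so that the anti-IgM libraries were the low ones then and the high ones at 68 h. The difference was -5.95 ± 0.71 (adjusted p = 1.19e-05 with all libraries and 4.92e-05 without LPS replicate 3). At 20 h, Igj was at 115, 103 and 98.5 with LPS and at 307, 186 and 226 with anti-IgM, and it was lower at 44 h in both groups. Each LPS library at 20 h had very high Actb (12355 to 21888 deposited TPM), unlike the anti-IgM libraries (2506 to 2974). The 20 h values were not tested.

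Dapk2 averaged 30.8 ± 0.98 scaled TPM with LPS and 0.483 ± 0.48 with anti-IgM at 68 h, and 1.57 ± 0.18 with LPS and 0.224 ± 0.29 with anti-IgM at 44 h (SD, n = 3 each), a difference of 3.39 ± 0.52 (adjusted p = 0.0015 and 0.00569). The gap was thus nearly all at 68 h, and the call was lost in the authors' log2 table and with a pseudocount of 0.1. Ube2l6, the enzyme that conjugates ISG15, averaged 59.9 ± 5.63 with LPS and 21.9 ± 1.54 with anti-IgM at 68 h, and 19.3 ± 3.72 with LPS and 18.6 ± 0.374 with anti-IgM at 44 h, a difference of 1.37 ± 0.26. Tubb4b, a beta-tubulin, averaged 157 ± 20.5 with LPS and 300 ± 25.9 with anti-IgM at 68 h, and 398 ± 31.3 with LPS and 298 ± 36.1 with anti-IgM at 44 h, a difference of -1.36 ± 0.24. In Tubb4b the anti-IgM means were alike at both times and the LPS mean was the lower at 68 h and the higher at 44 h.

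Polr2g, a subunit of RNA polymerase II, averaged 213 ± 29.6 scaled TPM with LPS and 238 ± 19.6 with anti-IgM at 68 h, and 469 ± 44.4 with LPS and 221 ± 2.88 with anti-IgM at 44 h (SD, n = 3 each), a difference of -1.25 ± 0.24. The sixth gene, Il27, a chain of interleukin 27, was too low for the naming rule (-2.79). The call of Tubb4b was lost without LPS replicate 3 at 44 h (-1.31, adjusted p = 0.0624) or anti-IgM replicate 2 at 44 h (-1.27, 0.0598). Those of Polr2g and Ube2l6 were lost without 9 of the 12 libraries each, all but LPS replicate 3 and anti-IgM replicate 2 at 68 h and LPS replicate 2 at 44 h (-1.15 to -1.26 and 1.28 to 1.38, adjusted p from 0.0545 to 0.13). The scaling of the libraries also ended calls. On the values as deposited and in the authors' log2 table, Tubb4b, Polr2g and Ube2l6 were not called (adjusted p up to 0.62, 0.538 and 0.665), and with quantile normalization Tubb4b and Polr2g were not. Ube2l6 was not called either when only the groups compared were fitted.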

How the data were processed

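Bulk RNA-seq of 45 libraries in 15 groups of 3 was used, of which 6 form the comparison. The authors deposited TPM (transcripts per 1000000) per gene symbol, and, separately, a table of log2 values. Per the submitters' processing notes the tools were kallisto and limma, and the builds GRCm38 and mm10 are named. Versions and the summing of transcripts to genes are not given in the sources used here. kallisto shares reads between near-identical transcripts by estimate.

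Deposited TPM were divided by median-ratio size factors (0.670 to 1.22 in the 6 libraries) and tested as log2(scaled TPM + 1), keeping 15614 of 30317 symbols at 1 TPM or more in at least 3 libraries. One limma model (limma 3.58.1, R 4.3.3, trended and robust variances) held all 15 group means, so that all groups share one estimate of the spread. P-values were adjusted by Benjamini-Hochberg over all tested genes and called below 0.05. The contrasts were LPS minus anti-IgM at 68 h on OP9-DL1, its difference from OP9 at 68 h and its difference from 44 h. Each was refitted without LPS replicate 3 on OP9-DL1 at 68 h, and "both fits" means called in both with the same sign. On simulated data, 13% of genes changed by 1 and 59% of those changed by 2 on the log2 scale were called, with 1 unchanged gene called. The noise was normal, independent between genes, and for each gene of the same spread in all groups. No simulated library stood apart as LPS replicate 3 does, so these rates need not hold for the real libraries. The depth of the libraries sets how far low genes can be told from 0, and TPM carry no counting interval.

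Genes were named by this rule: a set of genes always looked at, the 10 largest changes each way among genes called in both fits with groups apart and averaging 10 scaled TPM or more with either stimulus, up to 4 members of each of 34 lists, and up to 5 genes each way for each difference. Members, lists and comparisons were chosen with earlier results of these data known. A few results are not reported here. Promoter windows came from RefSeq. Tables and figures used Python 3.11.15, pandas 2.3.3, numpy 2.4.6 and matplotlib 3.10.9.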

Additional observations from a re-analysis of the deposited data

Results flagged for a closer look

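These results met a rule for differing between groups, each by limma's test of the difference between contrasts. Between the stromas at 68 h (OP9-DL1 minus OP9), LPS minus anti-IgM differed on the log2 scale by -6.86 for Igj, -2.71 for Rgcc, -2.46 for Dynlt1a, -1.84 for Fdps, -1.79 for Nme1 and 2.42 for Slfn8, with adjusted p from 3.72e-07 to 0.0254, and these calls held without LPS replicate 3. Those of Fdps and Slfn8 were lost on the values as deposited, that of Slfn8 also with quantile normalization and in the authors' log2 table, and that of Nme1 when only the groups compared were fitted. It differed by -2.26 for Lpar3 (adjusted p = 0.0304) and -2.13 for Tnip3 (0.0201), and both calls were lost without LPS replicate 3 (0.0901 and 0.0859). Lpar3 averaged 0.0617 ± 0.11 scaled TPM with LPS and 17.4 ± 2.04 with anti-IgM on OP9-DL1, and 0.0205 ± 0.035 with LPS and 3.06 ± 1.86 with anti-IgM on OP9 (SD, n = 3 each). Tnip3 averaged 4.22 ± 2.04 with LPS and 0.0591 ± 0.018 with anti-IgM on OP9-DL1, and 21.1 ± 3.77 with LPS and 0.0776 ± 0.069 with anti-IgM on OP9 (SD, n = 3 each).

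Between times on OP9-DL1 (68 h minus 44 h), the contrast differed by -5.95 for Igj, 3.39 for Dapk2, 1.37 for Ube2l6, -1.36 for Tubb4b and -1.25 for Polr2g, with adjusted p from 1.19e-05 to 0.0254. The 5 calls held without LPS replicate 3 at 68 h, but not under other scalings: Tubb4b, Polr2g and Ube2l6 were lost on the values as deposited, these and Dapk2 in the authors' log2 table, and Tubb4b and Polr2g with quantile normalization. The very high Actb of LPS replicate 3 on OP9-DL1, and of replicate 3 in other groups, moves with part of these comparisons, and its part in them was not tested beyond the fits that leave those libraries out.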

How the results depend on the processing

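The main count of 686 called genes was 433 on the deposited TPM, 369 in the authors' log2 table, 188 with only the groups compared, 1189 without the libraries of very high Actb, 1556 with only the groups compared and without LPS replicate 3 (chosen after seeing the data), and 398 to 664 leaving out each of the 6 libraries in turn. The stroma difference (31) was 50 on the deposited TPM, 102 without the libraries of very high Actb and 5 to 55 leaving out one library. The time difference (9) was 4 on the deposited TPM, 1 in the authors' log2 table, 36 with only the groups compared, 120 without the libraries of very high Actb and 3 to 7 leaving out one library. The cause was not tested. Of the 686, 59.5% were higher with LPS, against 67.2% on the deposited TPM, 51.4% with quantile normalization (329 higher, 311 lower) and 55.3% in the authors' log2 table. The median of all genes was 0.08, and -0.19 in the authors' log2 table. Of 105 named genes 82 were called, none reversed under the alternatives run, and 53 kept their call in all. The calls lost were 12 on the deposited TPM (Acss2, Batf, Bst2, Cr2, Ero1l, Fas, Klf6, Rgcc, S1pr1, Slfn8, Tnfrsf13b and Tubb4b), 18 in the authors' log2 table, 22 with only the groups compared, 5 with pseudocount 0.1, 2 with no filter and 2 with quantile normalization. In the authors' log2 table these included Bst2, Fas, Fcer2a, Il2ra, Prdm1, Slc16a3, Tnfrsf13b, Cr2, Ero1l and Acss2. Among uncalled genes, calls were gained by Ighg3 and Nme1 without the libraries of very high Actb, by Ighg3, Nme1 and Ighm with only the groups compared and without LPS replicate 3, and by Nme1 in the authors' log2 table. Uncalled genes changed sign as follows. Without LPS replicate 3, also with only the groups compared, and without the libraries of very high Actb, Actb was -0.41, Bach2 0.51, Dll1 0.032, Egr1 0.20, Hes1 -0.27 and Nr4a1 0.052. Dtx1 was -0.048 on the deposited TPM and -0.24 in the authors' log2 table. Leaving out one library, Actb ranged from -0.41 to 3.24, Bach2 from -0.62 to 0.51, Dtx1 from -0.54 to 0.49, Cd14 from 0 to 0.14, Cd180 from -1.12 to 0.21, Dll1 from -1.15 to 0.070, Dynlt1a from -0.26 to 0.069, Egr1 from -0.88 to 0.20, Hes1 from -0.27 to 1.85 and Nr4a1 from -1.46 to 0.052. Same-numbered LPS and anti-IgM libraries did not deviate together (r = -0.019, 0.066 and 0.075), so the numbers were not taken to pair these 6 libraries, although each library of very high Actb at 68 h was a replicate 3, and the replicate block gave 722, 32 and 10 calls and changed no call of a named gene. Keeping every symbol, keeping those at 5 TPM, leaving out immunoglobulin genes or adding 0.1 before the log kept each count within 1.5 times.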
